A study of Homo sapiens with 10 samples.

Results

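The genes encoding the proteasome were taken as every symbol made of PSM, 1 letter from A to G and a number. This rule found 48 of the 36432 symbols in the expression table, and 46 of the 48 reached at least 1 TPM (transcript abundance per length, scaled to 1000000 in each library) in 2 or more of the 10 libraries and could be tested. The cells were MDA-MB-231, a human triple-negative breast cancer line. They were 3 monoclonal BACH1 knockout (KO) clones, made with Cas9 protein and a guide RNA, and 2 control (WT) clones, each grown at 0 or 4.5 g/liter glucose over 40 hours. Each clone gave 1 library at each glucose level, so the groups were KO at 0 g/liter (n = 3), KO at 4.5 g/liter (n = 3), WT at 0 g/liter (n = 2) and WT at 4.5 g/liter (n = 2), and the clone was the replicate. BACH1 is a heme-binding transcription factor that represses heme oxygenase 1 (HMOX1) and other antioxidant genes.

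The proteasome degrades proteins tagged with ubiquitin. Its core, the 20S particle, is a stack of rings. PSMA genes encode the outer alpha rings, which gate the entry, and PSMB genes the inner beta rings, which hold the proteolytic sites. The 19S particle caps the core. Its ring of ATPases (PSMC genes) unfolds the substrate, and its non-ATPase subunits (PSMD genes) bind ubiquitin, remove it and hold the particle together. PSME genes encode other activators that can replace the 19S cap, PSMF1 encodes an inhibitor, and PSMG genes encode chaperones that assemble the core. Interferon-induced cells exchange the proteolytic subunits for PSMB8, PSMB9 and PSMB10, which gives the immunoproteasome. When proteasome activity falls short, the transcription factor NRF1 (gene NFE2L1) raises proteasome genes together through antioxidant response elements in their promoters. BACH1 binds DNA elements of the same kind with small MAF partners.

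Between 12259 and 12910 genes reached 1 TPM in a library, and sequencing depth is unknown because TPM keeps none. The mesenchymal markers VIM (1321 to 2066 TPM), CD44 and AXL were high in every library, while ESR1, PGR and CDH1 stayed under 1 TPM. ERBB2, whose protein product the triple-negative label calls absent or low, was at 14.3 to 37.2 TPM, and the epithelial marker EPCAM at 6.72 to 11.3 TPM. Markers of blood and endothelial cells were at or near 0, the highest being CD14 at 2.09 TPM. Of the fibroblast markers, COL1A1 was at 4.53 to 11.8 TPM, and DCN did not pass 0.473 TPM. BACH1 mRNA was at 12.6, 23.9 and 17.2 TPM in KO at 0 g/liter, against 19.7 and 20.6 TPM in WT at 0 g/liter. It was at 5.18, 2.84 and 3.42 TPM in KO at 4.5 g/liter, against 8.61 and 8.13 TPM in WT at 4.5 g/liter. The genotypes thus overlapped in BACH1 mRNA at 0 g/liter and did not at 4.5 g/liter, and the clones had been identified by their protein. HMOX1 was at 274 to 470 TPM in KO against 6.58 to 8.78 TPM in WT at 4.5 g/liter. At 0 g/liter HMOX1 was higher in both genotypes, at 1356 to 2033 TPM in KO against 532 to 568 TPM in WT. Mitochondrially encoded genes held 29.1% of the TPM in KO clone 1 at 0 g/liter, against 22.4 to 24.7% in the other 4 libraries without glucose. At 4.5 g/liter they held 29.7% in KO clone 1 and 26.1 to 27.9% in the other clones. How far this share set the values of KO clone 1 was not tested. Sums below are on the deposited scale unless stated, and counts of calls and 2 subcomplex sums without these genes are given beside them.

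Proteasome mRNAs were abundant in all groups. Over the 46 tested genes the median of the group means was 104 TPM in KO at 0 g/liter, 114 TPM in KO at 4.5 g/liter, 112 TPM in WT at 0 g/liter and 124 TPM in WT at 4.5 g/liter. The highest was PSMD2, a scaffold of the 19S base, at a mean of 456 TPM in KO at 0 g/liter and 486 TPM in WT at 4.5 g/liter. The lowest was the immunoproteasome subunit PSMB10, with group means between 8.45 and 10.1 TPM. The 2 untested genes were PSMA8, a testis form of an alpha subunit, which was at 0.0396 TPM in 1 library and at 0 in the others, and PSMB11, a thymus form of a beta subunit, which did not pass 0.0502 TPM. Summed over all 48 symbols, proteasome mRNA took 4905, 5916 and 5915 TPM in KO at 0 g/liter, against 6098, 6270 and 6034 TPM in KO at 4.5 g/liter. In WT cells the sum was 5598 and 6056 TPM at 0 g/liter, against 6593 and 6740 TPM at 4.5 g/liter. Each clone thus gave a lower sum without glucose, and the 2 glucose levels did not overlap within either genotype. KO clone 1 had the lowest sum of all, and KO clone 3 the smallest drop.

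The 10 libraries were then compared by glucose, to ask which proteasome genes changed when glucose was removed. In KO clones 9 of 46 members were called lower and 2 higher at 0 against 4.5 g/liter glucose (limma, adjusted p under 0.05). Of all 13418 genes tested, 19.9% were called lower and 9.05% higher in this comparison. In WT clones 8 of 46 members were called lower and 0 higher, against 15.9% and 7.47% of all genes, and no member was higher at an unadjusted p under 0.05. Of the members, 19.6% were thus called lower in KO and 17.4% in WT, close to the shares over all genes. PSMB2, PSMC3, PSMC5, PSMD1, PSMD5, PSME3 and PSMG4 were called lower in both genotypes, PSMC6 and PSMD11 in KO, and PSMD3 in WT. PSMB7 and PSME4 were called higher in KO. The 3 genes called lower in 1 genotype were below 0 in the other as well, with log2 fold changes of -0.46 (adjusted p = 0.0678, limma) for PSMC6 and -0.46 (adjusted p = 0.0706, limma) for PSMD11 in WT and -0.31 (adjusted p = 0.0523, limma) for PSMD3 in KO.

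The typical proteasome gene moved little. The median log2 fold change of the members was -0.17 in KO and -0.20 in WT, against -0.15 and -0.17 over all genes tested. In each genotype 37 of the 46 had a negative value, as did 8548 of 13418 genes in KO and 8584 in WT. Relative to the median of all genes, 22 members were above and 24 below it in KO, and 20 above and 26 below it in WT. In KO, 34 members stayed within 0.25 of that median on the log2 scale, as did 47.5% of all genes. In WT, 29 members did, as did 44% of all genes. The libraries with and without glucose did not overlap for 14 members that were lower and 2 that were higher in KO, where 27.7% and 11.8% of all genes were so placed. In WT these counts were 30 and 4, against 50.6% and 24.8% of all genes. In all 5 clones 23 members were lower without glucose and 2 were higher, against 41.7% and 18.4% of all genes.

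**Figure D1:**
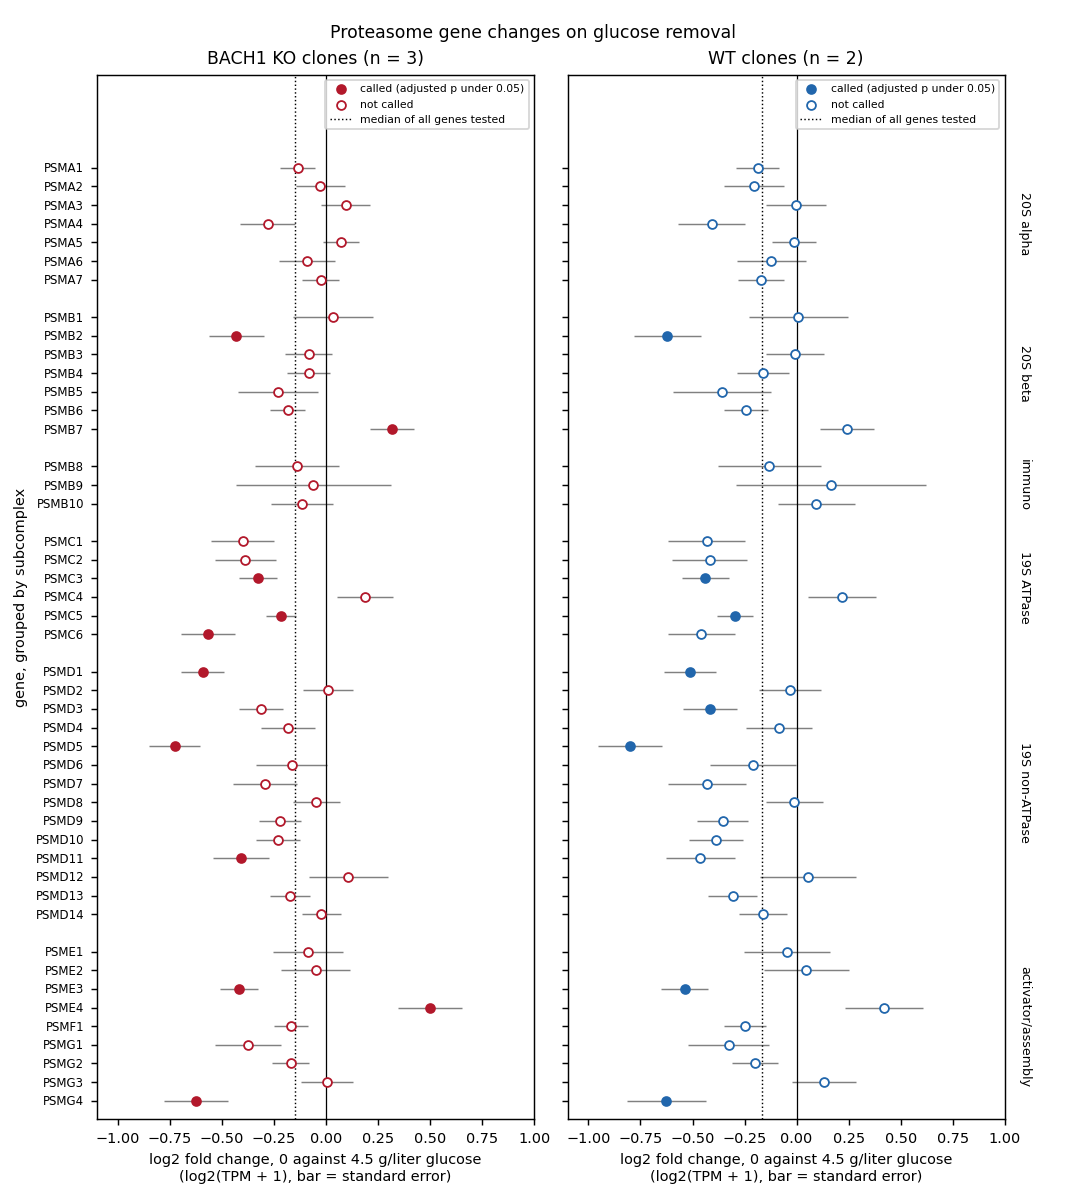
Log2 fold change of each of the 46 tested proteasome genes at 0 against 4.5 g/liter glucose, in BACH1 KO clones (left, n = 3) and WT clones (right, n = 2), on the log2(TPM + 1) scale with the standard error as a bar. Filled points were called at an adjusted p under 0.05 (limma), the dotted line is the median of all genes tested (-0.15 in KO, -0.17 in WT), and most members lie near that line, with PSMD5 the lowest and PSME4 the highest in both panels.

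These counts depended on how the libraries were scaled and paired. With median-ratio scaling, which moved the median of all genes to 0.02 in both genotypes, 2 members were called lower in KO (PSMD1 and PSMD5) and 1 in WT (PSMD5), against 8.65% and 5.33% of all genes. On that scale 2 members were called higher in KO (PSMB7 and PSME4) and 1 in WT (PSME4), against 13.3% and 10.6% of all genes, and the members' medians became 0.02 and 0.01. The direction of the members as a list was therefore that of all genes under either scaling. With clone as a blocking term, so that each clone was compared with itself, 17 members were called lower in KO and 20 in WT, against 31.9% and 28.6% of all genes, and 2 and 1 were called higher. Leaving out any WT library left at most 1 member called lower in WT.

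In the ring of ATPases, 3 of 6 genes were called lower in KO and 2 of 6 in WT, with medians of -0.36 and -0.43. Of all genes, 19.9% were called lower in KO and 15.9% in WT. With the clone block 5 of the 6 were called lower in each, against 31.9% and 28.6% of all genes. With median-ratio scaling 0 of the 6 were called in either genotype, with medians of -0.17 in KO and -0.21 in WT. PSMC6, an ATPase that joins the others in the hexamer, was at 101, 106 and 81.7 TPM in KO at 0 g/liter, against 153, 152 and 124 TPM in KO at 4.5 g/liter. It was at 98.6 and 119 TPM in WT at 0 g/liter, against 146 and 153 TPM in WT at 4.5 g/liter. The glucose levels did not overlap in either genotype, and its log2 fold change in KO was -0.57 (SE, standard error, 0.13, adjusted p = 0.0122, limma). PSMC3 was at 150, 180 and 163 TPM in KO at 0 g/liter, against 203, 217 and 197 TPM in KO at 4.5 g/liter. In WT it was at 167 and 184 TPM at 0 g/liter, against 245 and 231 TPM at 4.5 g/liter. Its change was smaller than that of PSMC6 in KO, with -0.33 (SE 0.09, adjusted p = 0.0259) in KO and -0.44 (SE 0.11, adjusted p = 0.0224) in WT by limma. PSMC5 was at 135, 141 and 142 TPM in KO at 0 g/liter, against 169, 157 and 161 TPM in KO at 4.5 g/liter, and at 148 and 146 TPM in WT at 0 g/liter, against 177 and 185 TPM in WT at 4.5 g/liter. It had the smallest standard error of the 3 (0.07 in KO), with a log2 fold change of -0.22 in KO and -0.30 in WT, and the KO call was lost when any 1 library was left out. PSMC4 was the exception among the ATPases, with a log2 fold change of 0.19 (adjusted p = 0.318, limma) in KO and 0.22 (adjusted p = 0.367, limma) in WT. PSMC4 was at 80.6, 121 and 108 TPM in KO at 0 g/liter, against 90.5, 89.6 and 87.8 TPM in KO at 4.5 g/liter, so clone 1 stood below its own level with glucose while clones 2 and 3 stood above theirs. The other 5 of the 6 genes were lower without glucose in all 5 clones, as were 41.7% of all genes.

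Among the 14 PSMD genes, 3 (21.4%) were called lower in each genotype, with medians of -0.20 in KO and -0.33 in WT. Of all genes, 19.9% were called lower in KO and 15.9% in WT. With the clone block 6 PSMD genes were called lower in KO and 8 in WT, against 31.9% and 28.6% of all genes. The lowest of all 46 members was PSMD5, a chaperone that helps to assemble the base of the 19S particle and leaves before it is complete. PSMD5 was at 29.9, 21.9 and 23.1 TPM in KO at 0 g/liter, against 45.5, 39.0 and 40.4 TPM in KO at 4.5 g/liter. It was at 27.8 and 27.6 TPM in WT at 0 g/liter, against 49.8 and 48.2 TPM in WT at 4.5 g/liter. No library without glucose reached a library with glucose, and the log2 fold change was -0.73 (SE 0.12, adjusted p = 0.00328) in KO and -0.80 (SE 0.15, adjusted p = 0.00735) in WT by limma. PSMD1, the scaffold at the base of the 19S particle, was at 49.1, 54.9 and 42.5 TPM in KO at 0 g/liter, against 76.5, 73.5 and 71.4 TPM in KO at 4.5 g/liter. In WT it was at 51.7 and 55.9 TPM at 0 g/liter, against 76.5 and 77.8 TPM at 4.5 g/liter. The groups again did not overlap, with a log2 fold change of -0.59 (SE 0.10, adjusted p = 0.00345) in KO and -0.51 (SE 0.13, adjusted p = 0.0195) in WT by limma. PSMD5 and PSMD1 kept their KO call under all 20 other settings and left-out libraries tried, and PSMD5 kept its WT call in all of those that retained the 4 WT libraries. The lid subunits PSMD11 (log2 fold change -0.41 in KO, adjusted p = 0.0479, limma) and PSMD3 (-0.41 in WT, adjusted p = 0.0458, limma) were closer to the threshold. PSMD2, which shares the scaffold role of PSMD1, had a log2 fold change of 0.01 in KO and -0.03 in WT. Without the chaperones PSMD5, PSMD9 and PSMD10, the medians of the other 11 PSMD genes were -0.17 and -0.21.

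Promoter sequences are shown for PSMD5 and PSMD1, whose KO calls held under every setting, for the ATPase PSMC6 and for PSME4, which was called higher in KO. They run from 250 bases before to 50 bases after the start site (RefSeq, GRCh38.p14), written 5′ to 3′ on the gene's strand. Capitals mark matches to TGACNNNGC, the core of the antioxidant response element, or to CCAAT, on either strand.
PSMD5 (chr9:120842873-120843172, minus strand): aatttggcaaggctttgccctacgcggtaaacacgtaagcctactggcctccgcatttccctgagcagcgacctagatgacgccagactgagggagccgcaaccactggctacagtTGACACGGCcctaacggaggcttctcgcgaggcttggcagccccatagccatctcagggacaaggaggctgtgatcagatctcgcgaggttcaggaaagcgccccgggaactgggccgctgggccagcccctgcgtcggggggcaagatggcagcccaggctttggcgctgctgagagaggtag
PSMD1 (chr2:231056617-231056916, plus strand): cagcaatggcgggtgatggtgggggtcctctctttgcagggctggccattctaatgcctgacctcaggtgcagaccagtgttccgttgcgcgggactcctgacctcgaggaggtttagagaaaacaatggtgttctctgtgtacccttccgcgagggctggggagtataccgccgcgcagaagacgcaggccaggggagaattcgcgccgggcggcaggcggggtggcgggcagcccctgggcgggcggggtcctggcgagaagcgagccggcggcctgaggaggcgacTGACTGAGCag
PSMC6 (chr14:52706950-52707249, plus strand): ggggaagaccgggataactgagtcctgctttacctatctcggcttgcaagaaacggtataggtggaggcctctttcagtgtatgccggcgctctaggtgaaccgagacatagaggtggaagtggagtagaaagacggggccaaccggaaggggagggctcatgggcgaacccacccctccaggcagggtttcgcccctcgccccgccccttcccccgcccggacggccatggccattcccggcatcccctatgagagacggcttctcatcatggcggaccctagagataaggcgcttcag
PSME4 (chr2:53970944-53971243, minus strand): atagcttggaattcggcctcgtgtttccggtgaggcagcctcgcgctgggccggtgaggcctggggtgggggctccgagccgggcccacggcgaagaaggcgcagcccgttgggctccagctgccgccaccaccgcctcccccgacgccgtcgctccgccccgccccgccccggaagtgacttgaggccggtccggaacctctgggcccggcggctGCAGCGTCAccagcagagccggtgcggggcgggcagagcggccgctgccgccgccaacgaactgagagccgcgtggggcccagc
A TGACNNNGC match stands at base -134 from the start site of PSMD5, at 39 of PSMD1 and, on the other strand, at -34 of PSME4, and the PSMC6 window held no match to either motif. RefSeq windows were found for 42 of the 48 genes, 51 windows in all, with no entry for PSMA7, PSMB1, PSMB6, PSMB7, PSMD4 and PSMG3. TGACNNNGC was present in 29.4% of the proteasome windows, against 13.3% of all 35116 windows. It was present in 4 of 11 windows of the genes called lower in either genotype, and in 10 of 39 windows of the genes called neither way. CCAAT was present in 39.2% of the proteasome windows against 34.6% of all windows. A longer motif, TGA and GCA with 4 free bases between, which can overlap TGACNNNGC, was present in 35.3% against 12.5%, and TGCTGANN in 15.7% against 17.2%. These 4 motifs were searched with the expression values known, and a match shows only that these letters are present.

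The 9 activator, inhibitor and assembly genes held both the second lowest and the highest changes. Of these, 2 were called lower and 1 higher in KO and 2 lower in WT. Over all genes the shares were 19.9% lower and 9.05% higher in KO and 15.9% lower in WT. With the clone block 3 were called lower and 1 higher in KO and 4 lower and 1 higher in WT. There the shares over all genes were 31.9% lower and 14.6% higher in KO and 28.6% and 12.4% in WT. PSMG4, a chaperone of the 20S core, was at 17.0, 11.1 and 12.3 TPM in KO at 0 g/liter, against 21.2, 19.6 and 22.2 TPM in KO at 4.5 g/liter. In WT it was at 15.8 and 13.1 TPM at 0 g/liter, against 21.7 and 23.9 TPM at 4.5 g/liter. The change had the same size in both genotypes, -0.62 (SE 0.15, adjusted p = 0.0158) in KO and -0.63 (SE 0.19, adjusted p = 0.0414) in WT by limma, while the other chaperones PSMG1, PSMG2 and PSMG3 were not called. PSME3, which encodes the nuclear activator PA28 gamma, was at 132, 114 and 109 TPM in KO at 0 g/liter, against 153, 155 and 165 TPM in KO at 4.5 g/liter. It was at 137 and 127 TPM in WT at 0 g/liter, against 194 and 191 TPM in WT at 4.5 g/liter. Its log2 fold change was -0.42 (SE 0.09, adjusted p = 0.00904) in KO and -0.54 (SE 0.11, adjusted p = 0.01) in WT by limma. The activator PSME4, known as PA200, went the other way, at 30.5, 46.8 and 43.8 TPM in KO at 0 g/liter, against 25.5, 30.0 and 28.1 TPM in KO at 4.5 g/liter. In WT it was at 37.2 and 40.7 TPM at 0 g/liter, against 28.9 TPM in both libraries at 4.5 g/liter. PSME4 was higher in each clone, with a log2 fold change of 0.50 (SE 0.15, adjusted p = 0.0367, limma) in KO and 0.42 (SE 0.19, adjusted p = 0.135, limma) in WT. Its KO call held in 1 of the 10 fits that left out a library, the one without KO clone 1 at 0 g/liter. PSME1 and PSME2, the interferon-induced subunits of PA28, and the inhibitor gene PSMF1 were not called in either genotype.

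**Figure D2:**
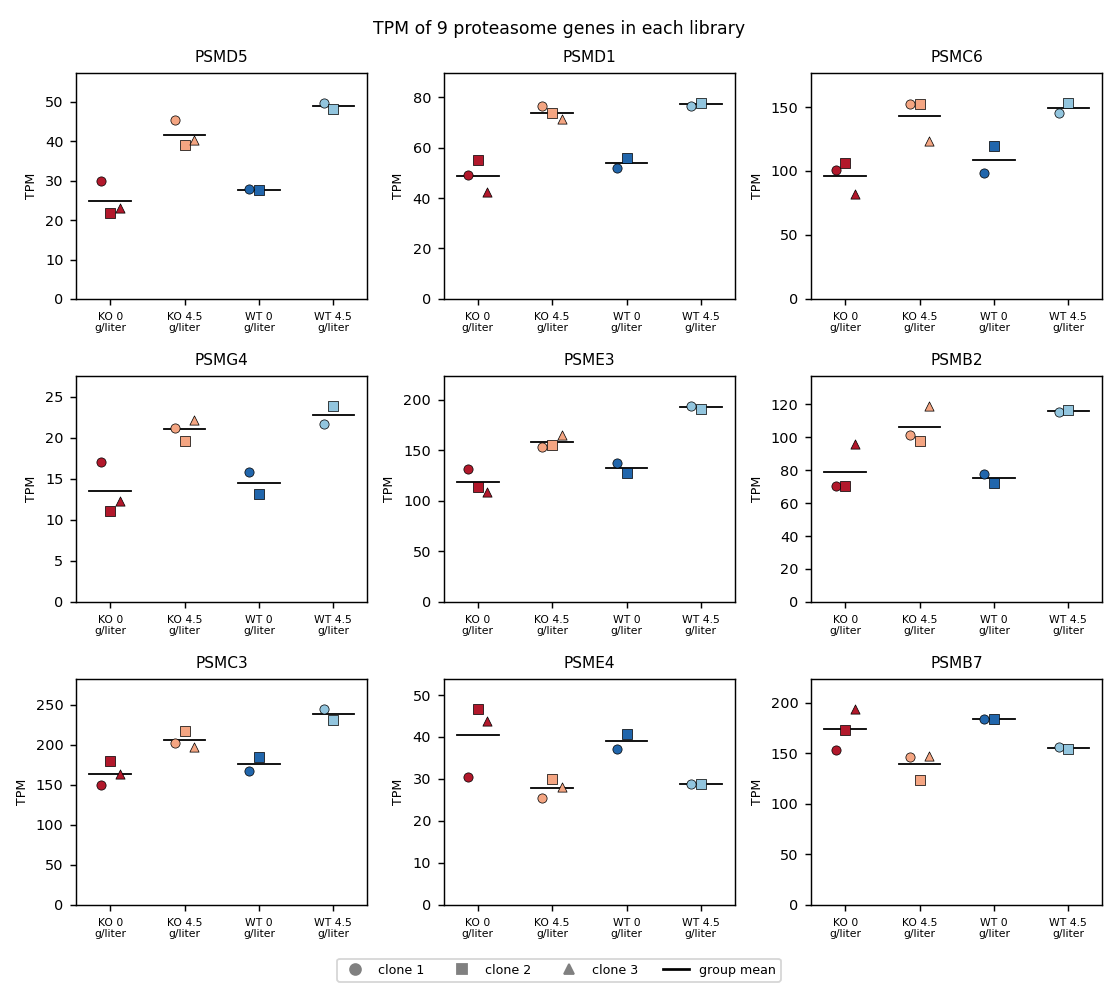
TPM of 9 proteasome genes (vertical axes, from 0) in each of the 10 libraries, grouped by genotype and glucose, with clones as symbols and group means as lines. The 7 genes called lower in KO lie lower at 0 than at 4.5 g/liter in every clone (PSMD5 21.9 to 29.9 against 39.0 to 45.5 TPM in KO), and PSME4 and PSMB7 lie higher.

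In the core particle, none of the 7 tested alpha subunits was called in either genotype, with medians of -0.03 in KO and -0.17 in WT. With median-ratio scaling these medians turned to 0.16 and 0.04, again with no call, and with the clone block 1 alpha gene, PSMA4, was called lower in each genotype. The largest alpha change was that of PSMA4, at -0.28 (adjusted p = 0.139, limma) in KO and -0.41 (adjusted p = 0.0954, limma) in WT, and 1 alpha gene in WT had an unadjusted p under 0.05. Of the 7 tested beta subunits, PSMB2, which carries no proteolytic site, was called lower in both genotypes. With the clone block 2 beta genes were called lower in each genotype, against 31.9% of all genes in KO and 28.6% in WT. PSMB2 was at 70.7, 70.4 and 95.9 TPM in KO at 0 g/liter, against 101, 97.6 and 119 TPM in KO at 4.5 g/liter, and at 77.6 and 72.4 TPM in WT at 0 g/liter, against 115 and 116 TPM in WT at 4.5 g/liter. KO clone 3 was higher than the other KO clones at both glucose levels, and the log2 fold change was -0.43 (SE 0.13, adjusted p = 0.0377) in KO and -0.62 (SE 0.16, adjusted p = 0.0242) in WT by limma. The KO call of PSMB2 held in 1 of the 10 fits that left out a library.

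The 3 beta subunits with proteolytic sites did not move together. PSMB7, the trypsin-like subunit, was at 154, 173 and 194 TPM in KO at 0 g/liter, against 146, 124 and 147 TPM in KO at 4.5 g/liter. It was at 183 and 184 TPM in WT at 0 g/liter, against 156 and 154 TPM in WT at 4.5 g/liter. All 5 clones were higher without glucose, with a log2 fold change of 0.32 (SE 0.11, adjusted p = 0.0495, limma) in KO and 0.24 (adjusted p = 0.205, limma) in WT, and the KO call held in 1 of the 10 fits that left out a library. PSMB5, the chymotrypsin-like subunit, was at 115, 120 and 78.8 TPM in KO at 0 g/liter, against 139, 137 and 93.0 TPM in KO at 4.5 g/liter, and at 108 and 121 TPM in WT at 0 g/liter, against 143 and 151 TPM in WT at 4.5 g/liter. KO clone 3 had the lowest PSMB5 at both glucose levels, and neither genotype passed the test. PSMB6, the caspase-like subunit, was at 182, 179 and 191 TPM in KO at 0 g/liter, against 233, 202 and 194 TPM in KO at 4.5 g/liter, and at 192 and 198 TPM in WT at 0 g/liter, against 227 and 235 TPM in WT at 4.5 g/liter. PSMB5 and PSMB6 were lower without glucose in all 5 clones and were not called.

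No immunoproteasome subunit passed the test, and for PSMB8 and PSMB9 the KO clones kept their order at both glucose levels. PSMB9, the immunoproteasome counterpart of PSMB6, was at 9.73, 28.1 and 21.8 TPM in KO at 0 g/liter, against 13.5, 29.7 and 17.2 TPM in KO at 4.5 g/liter, and at 19.3 and 22.4 TPM in WT at 0 g/liter, against 16.2 and 20.9 TPM in WT at 4.5 g/liter. KO clone 1 was the lowest and KO clone 2 the highest at either glucose level, and the log2 fold change was -0.06 (SE 0.37) in KO and 0.17 (SE 0.46) in WT. PSMB8, the counterpart of PSMB5, was at 36.3, 53.4 and 45.3 TPM in KO at 0 g/liter, against 37.4, 65.0 and 48.6 TPM in KO at 4.5 g/liter, and at 41.2 and 49.0 TPM in WT at 0 g/liter, against 46.8 and 51.9 TPM in WT at 4.5 g/liter. The KO clones stood in the same order as for PSMB9, with clone 1 lowest and clone 2 highest at both glucose levels. PSMB10, the counterpart of PSMB7, ran between 7.61 and 11.6 TPM. PSMB8, PSMB9 and PSMB10 were not called in any comparison, and none had an unadjusted p under 0.05 in the glucose comparisons. As a share of the level of the counterpart in the same library, PSMB8 ran between 27.0 and 57.4%, PSMB9 between 5.34 and 15.7% and PSMB10 between 4.64 and 7.53%, on the length-scaled TPM.

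**Figure D3:**
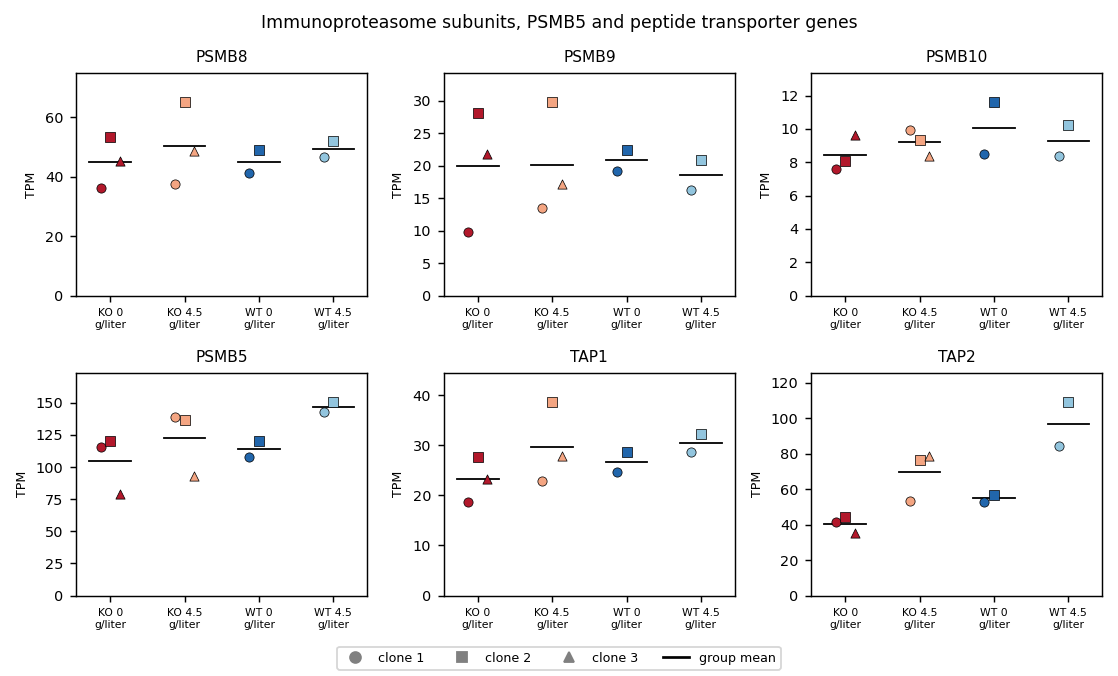
TPM (vertical axes, from 0) of PSMB8, PSMB9, PSMB10, PSMB5, TAP1 and TAP2 in each of the 10 libraries, grouped by genotype and glucose, with clones as symbols and group means as lines. For PSMB9, KO clone 1 is lowest (9.73 and 13.5 TPM) and KO clone 2 highest (28.1 and 29.7 TPM) at 0 and 4.5 g/liter, while TAP2 lies lower without glucose in every clone.

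PSMB8 (GENCODE v44 on GRCh38, chr6:32840717-32844679, minus strand) and PSMB9 (chr6:32844136-32859851, plus strand) lie in the major histocompatibility complex beside TAP1 and TAP2, which encode the transporter that brings peptides into the endoplasmic reticulum. The annotated spans of PSMB8 and PSMB9 overlap, and reads shared between them cannot be told apart if the counting did not use strand. TAP1 was at 18.7, 27.6 and 23.4 TPM in KO at 0 g/liter, against 22.8, 38.7 and 27.8 TPM in KO at 4.5 g/liter, in the same order of KO clones as PSMB8 and PSMB9. TAP2 was at 41.7, 44.5 and 35.3 TPM in KO at 0 g/liter, against 53.4, 76.4 and 78.5 TPM in KO at 4.5 g/liter, and was called lower in both genotypes. Over all genes, 9.05% were called higher in KO and 7.47% in WT. Of the 15 genes listed for peptide presentation on class I molecules and interferon response, 4 were called higher in each genotype. They were CALR and PDIA3, chaperones of the endoplasmic reticulum that load class I molecules, HLA-E and the interferon regulator IRF1.

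Summed by subcomplex, the mRNA of the ATPases averaged 874 ± 95.0 TPM (SD, n = 3) in KO at 0 g/liter and 1089 ± 90.7 TPM (SD, n = 3) in KO at 4.5 g/liter, and 957 ± 80.9 TPM (SD, n = 2) in WT at 0 g/liter and 1216 ± 28.6 TPM (SD, n = 2) in WT at 4.5 g/liter. The non-ATPases averaged 1726 ± 246 TPM in KO at 0 g/liter and 1882 ± 54.8 TPM in KO at 4.5 g/liter, and 1794 ± 120 TPM in WT at 0 g/liter and 2032 ± 43.3 TPM in WT at 4.5 g/liter. The alpha subunits averaged 969 ± 80.1 TPM in KO at 0 g/liter and 1015 ± 27.9 TPM in KO at 4.5 g/liter. The beta subunits came to 1060 to 1381 TPM in KO at 0 g/liter and 1247 to 1287 TPM in KO at 4.5 g/liter. The immunoproteasome subunits came to 53.7 to 89.6 TPM in KO at 0 g/liter and 60.8 to 104 TPM in KO at 4.5 g/liter. These groups overlapped, as did those of the alpha, beta and non-ATPase sums in KO. In WT the alpha sums (962 to 1033 against 1120 to 1122 TPM) did not overlap between glucose levels. Neither did the WT beta (1235 to 1315 against 1370 to 1396 TPM) and non-ATPase sums (1709 to 1879 against 2001 to 2062 TPM). The activator, inhibitor and assembly genes came to 678 to 740 TPM in KO at 0 g/liter and 777 to 824 TPM in KO at 4.5 g/liter. In WT they came to 723 to 733 TPM at 0 g/liter and 832 to 842 TPM at 4.5 g/liter. Their sums, like those of the ATPases, did not overlap between glucose levels in either genotype. With mitochondrially encoded genes left out of the scale, the KO alpha sums did not overlap either (1238 to 1326 against 1371 to 1449 TPM). Nor did the KO non-ATPase sums (2038 to 2436 against 2592 to 2660 TPM), while the KO beta and immunoproteasome sums still overlapped.

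**Figure D4:**
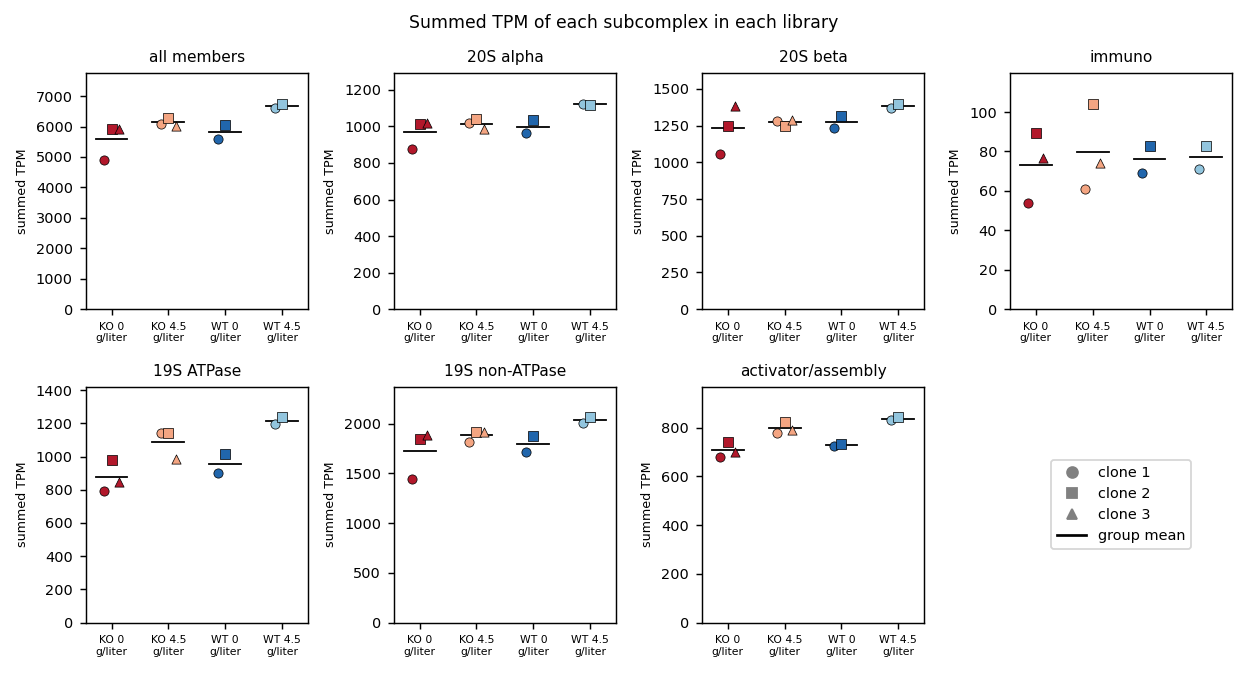
Summed TPM of all 48 proteasome symbols and of each subcomplex (vertical axes, from 0) in each of the 10 libraries, grouped by genotype and glucose, with clones as symbols and group means as lines. The ATPase sums lie lower at 0 than at 4.5 g/liter in both genotypes (795 to 980 against 984 to 1143 TPM in KO). So do the sums of the activator, inhibitor and assembly genes (678 to 740 against 777 to 824 TPM in KO). The sums of the alpha, beta, immunoproteasome and non-ATPase subunits overlap in KO, and in WT those of the immunoproteasome subunits alone do.

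The size of the change varied between clones. The median change of the 46 members without glucose was -0.30 in KO clone 1, -0.16 in KO clone 2 and -0.03 in KO clone 3, with 42, 33 and 24 members lower. In the WT clones it was -0.24 and -0.17, with 38 and 32 members lower. Over all genes tested the medians of KO clones 1 to 3 were -0.11, -0.16 and -0.17, so the order of the KO clones was not that of all their genes. KO clone 1 is the clone with the highest mitochondrial share at both glucose levels, 29.7% at 4.5 g/liter and 29.1% in its library at 0 g/liter. Without that library 6 members were called lower and 4 higher in KO, the 4 being PSMB7, PSMC4, PSMD12 and PSME4, and 14 were called lower in WT. In that fit 21.8% of all genes were called lower and 12.6% higher in KO, and 20.1% lower in WT. With the mitochondrially encoded genes left out of the scale, 16 members were called lower and 1 higher in KO, and 14 lower in WT, against 23.8% and 18.1% of all genes called lower.

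BACH1 KO and WT clones were then compared at each glucose level, to ask whether loss of BACH1 went with another level of proteasome genes. No member was called in either direction at 4.5 g/liter, where 0.0373% of all genes were called higher and 0.0373% lower, or at 0 g/liter, where 0.00745% were called higher and 0.0298% lower (limma, adjusted p = 1 for each member). At 4.5 g/liter 43 of the 46 members had a negative log2 fold change for KO against WT, as did 7812 of 13418 genes. The median was -0.11 for the members against -0.03 over all genes. The 2 genotypes did not overlap for 21 members that were lower in KO and 1 that was higher, where 14.6% and 6.3% of all genes were so placed. The summed proteasome mRNA at 4.5 g/liter averaged 6134 ± 122 TPM in KO (SD, n = 3) and 6666 ± 104 TPM in WT (SD, n = 2), without overlap.

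PSME3 and PSMA3, an alpha subunit, had the smallest p at 4.5 g/liter and were the only members with an unadjusted p under 0.05. PSME3 was at 153, 155 and 165 TPM in KO, against 194 and 191 TPM in WT, with a log2 fold change of -0.29 (SE 0.10, limma unadjusted p = 0.0192). PSMA3 was at 120, 128 and 99.8 TPM in KO, against 149 and 143 TPM in WT, with a log2 fold change of -0.34 (SE 0.13, limma unadjusted p = 0.0301). The genotypes did not overlap for either gene, and neither passed the adjustment. At 0 g/liter 35 of 46 members had a negative value, as did 7368 of 13418 genes, with a median of -0.09 for the members against -0.02 over all genes. The genotypes did not overlap there for 3 members that were lower in KO and 0 that were higher, against 7.98% and 5.69% of all genes, and no member had an unadjusted p under 0.05. The median at 0 g/liter became 0.02 without KO clone 1, so its direction rested on that library.

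The responses to glucose removal of KO and WT clones were set against each other with the difference of the 2 changes. No member was called, beside 0.00745% of all genes called lower and 0% called higher, and no member had an unadjusted p under 0.05. The difference, KO minus WT, was positive for 33 of 46 members with a median of 0.05, and for 7257 of 13418 genes with a median of 0.02. The members' median rested on single libraries, being 0.13 without KO clone 1, 0.02 without KO clone 2, 0.01 without KO clone 3, -0.01 without WT clone 1 and 0.11 without WT clone 2, each left out at 0 g/liter. The smallest p belonged to PSMA7, at 0.15 (SE 0.14, limma unadjusted p = 0.326), and PSMA2, at 0.18 (SE 0.19, limma unadjusted p = 0.368), both of the alpha ring. The standard errors of the difference ran from 0.11 for PSMC5 to 0.59 for PSMB9.

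Genes that work with the proteasome but carry other symbols were read beside the members. Of 12 such genes, 2 were called higher and 3 lower in KO, and 2 higher and 1 lower in WT. The shares over all genes were 9.05% higher and 19.9% lower in KO, and 7.47% and 15.9% in WT. PITHD1, named here for its reported association with the proteasome, was at 37.6, 51.8 and 38.2 TPM in KO at 0 g/liter, against 21.0, 20.8 and 20.9 TPM in KO at 4.5 g/liter. In WT it was at 43.6 and 47.9 TPM at 0 g/liter, against 21.7 and 23.1 TPM at 4.5 g/liter. PITHD1 rose, with a log2 fold change of 0.97 in KO (adjusted p = 0.000975, limma) and 1.00 in WT (adjusted p = 0.00323, limma). This was a larger fold change than that of any PSM gene, and PITHD1 kept both calls under every setting tried. The highest value of the list was that of ZFAND5, at 1.21 in KO and 1.38 in WT, and ZFAND5 was not called in either genotype. AKIRIN2, a factor for import of proteasomes into the nucleus, rose by 0.36 in KO (adjusted p = 0.0264, limma) and 0.50 in WT (adjusted p = 0.0199, limma) on the log2 scale. USP14, a deubiquitinase bound to the 19S particle, had a log2 fold change of -0.38 in KO (adjusted p = 0.0154, limma) and -0.39 in WT (adjusted p = 0.0372, limma). UCHL5, another such deubiquitinase, and UBE3C were called lower in KO. In WT they were not called but also averaged less at 0 than at 4.5 g/liter, UCHL5 at 45.7 against 58.6 TPM and UBE3C at 45.3 against 60.8 TPM. The 19S subunits ADRM1 and SEM1 and the core maturation factor POMP were not called in either genotype.

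Of 12 genes of the NRF1 route and of p97, the ATPase that extracts NRF1 from the membrane, 1 was called higher and 2 lower in KO and 1 higher and 1 lower in WT. The shares over all genes were 9.05% higher and 19.9% lower in KO, and 7.47% and 15.9% in WT. NFE2L1 itself was at 245, 197 and 209 TPM in KO at 0 g/liter, against 182, 184 and 223 TPM in KO at 4.5 g/liter, and at 190 and 196 TPM in WT at 0 g/liter, against 168 and 187 TPM in WT at 4.5 g/liter. These libraries overlapped in KO, and the log2 fold change of NFE2L1 was 0.14 in KO and 0.12 in WT without a call. NPLOC4, a p97 adaptor, was lower in KO, with a log2 fold change of -0.63 (adjusted p = 0.00838, limma). In WT it was not called but was also lower, at 82.7 and 83.8 TPM at 0 g/liter against 122 and 115 TPM at 4.5 g/liter. The adaptor NSFL1C was lower and FBXW7, a ubiquitin ligase subunit that targets NRF1, was higher in both genotypes.

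Among the genes for ubiquitin, UBB encodes a chain of ubiquitin units. It was at 1164, 1675 and 1905 TPM in KO at 0 g/liter, against 1054, 1076 and 1067 TPM in KO at 4.5 g/liter. In WT it was at 1726 and 1638 TPM at 0 g/liter, against 1096 and 1086 TPM at 4.5 g/liter. KO clone 1 rose least, the glucose levels did not overlap in either genotype, and the log2 fold change was 0.54 in KO (adjusted p = 0.0282, limma) and 0.62 in WT (adjusted p = 0.0413, limma). The call held in 5 of the 10 fits that left out a library in KO and in 3 of the 10 in WT. No gene named here from these lists was called between the genotypes at either glucose level.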

How the data were processed

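The authors isolated poly-A RNA, sequenced it as single 100-base reads and ran kallisto 0.44.0 against GRCh38.p12 transcripts to make the TPM values they deposited. The submitters' processing notes also name bcl2fastq 2.19 and DESeq2. The annotation release and the summing of transcripts per symbol are not given in the sources used here. TPM divides by transcript length and library total, so a value moves when other genes take more of the library. Of 36459 symbols, 27 had been turned into dates and were dropped.

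The values were tested as log2(TPM + 1) by limma 3.58.1 under R 4.3.3 (group means over all 10 libraries, 6 residual degrees of freedom, eBayes with trend). Tests were two-sided, called at an adjusted p under 0.05 after Benjamini-Hochberg correction, and covered 13418 genes, those at or above 1 TPM in 2 or more libraries. Fold changes are on this scale. At 3 against 3 or fewer, an exact permutation test cannot reach 0.05. P-values measure clone-to-clone spread. Libraries of a clone are paired by design, since every clone was kept with and without glucose. Their deviations (library minus group mean) had correlations of 0.609, 0.426 and 0.507 in the KO clones and 0.0991 in the WT clones. Equal numbers of KO and WT clones name different clones. No 2 libraries were identical.

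Members, lists and motifs were chosen with earlier results of these data known. Values in every library are given for the proteolytic subunits and their immunoproteasome counterparts and, per subcomplex, the 2 called genes with the smallest p in each direction and contrast and the largest change. Between genotypes the 2 smallest p were followed. PSMC4, PSMD2, PSMD3, PSMD11, TAP1 and TAP2 were named beyond this rule after their values were seen. Some list results are not reported here. The fit was tested on simulated data, after it had been run once on the deposited values. Alternatives were another pseudocount, other filters, scalings, spreads and thresholds, a clone block, and leaving out each library.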

Additional observations from a re-analysis of the deposited data

How the results depend on the processing

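The count of proteasome genes called higher in KO (2) was 0 without a filter on low values, 1 without the mitochondrially encoded genes, 0 with only the groups compared in the fit and 1 without a mean-variance trend, and 0 to 4 when a library was left out (4 without KO clone 1 at 0 g/liter, 0 without any other). The count called lower in KO (9) was 2 with median-ratio scaling, 16 without mitochondrially encoded genes, 17 with the replicate block and 5 with only the groups compared, and 5 to 7 when a library was left out. The lowest of these was without KO clone 2 at 4.5 g/liter. The count called higher in WT (0) was 1 under median-ratio scaling, under quantile normalization and with the replicate block and 3 with only the groups compared, and 0 to 1 when a library was left out. The count called lower in WT (8) was 1 under median-ratio scaling, 3 after quantile normalization, 14 without mitochondrially encoded genes, 20 with the replicate block, 20 with only the groups compared and 14 at an adjusted p under 0.1, and 0 to 14 when a library was left out. It was 1 without WT clone 1 at 0 g/liter and 0 without any other WT library, each of which leaves a WT group with 1 library assumed to vary like the other groups, 5 without KO clone 2 or 3 at 4.5 g/liter and 14 without KO clone 1 at 0 g/liter. All counts for KO against WT and for the difference of responses were 0 in the fits run, the replicate block included. Over all genes, median-ratio scaling gave 1789 higher and 1161 lower in KO and 1416 and 715 in WT, against 1214 and 2664 in KO and 1002 and 2136 in WT on the deposited scale. The cause of these shifts was not tested, beyond the smaller groups and the moved median.

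Signs turned for uncalled genes near 0. In KO, median-ratio scaling gave 0.045 for PSMB8, 0.12 for PSMB9, 0.056 for PSMB10, 0.0042 for PSMB6 and 0.071 for SEM1, and quantile normalization gave 0.0020 for PSMB8 and 0.072 for PSMB9. Leaving out KO clone 1 without glucose gave 0.0017 for PSMB8, 0.36 for PSMB9 and 0.045 for SEM1, while leaving out KO clone 2 with glucose gave 0.059 for PSMB8 and 0.25 for PSMB9. Over all left-out libraries, the ranges in KO were -0.33 to 0.059 for PSMB8, -0.36 to 0.36 for PSMB9 and -0.27 to 0.045 for SEM1. In WT, median-ratio scaling gave 0.080 for PSMB8 and 0.17 for SEM1, and quantile normalization gave 0.030 for PSMB8. POMP was at -0.029 and ADRM1 at -0.022 without mitochondrially encoded genes, and ADRM1 at -0.011 with quantile normalization. Leaving out a WT library gave ranges of -0.0082 to 0.34 for PSMB9, -0.11 to 0.30 for PSMB10 (-0.034 in another), -0.035 to 0.076 for POMP, -0.016 to 0.073 for ADRM1 and -0.19 to 0.095 for SEM1.

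TPM hold no depth, and no counting error is given. With 2 WT clones the WT comparison has the least support. Pseudogene symbols reached 8.80% of the TPM of PSMD10 and 1.25% of that of PSMC1, and reads split between these genes and near copies make their values uncertain.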

Other observations

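Other large complexes of the same cells are given as values beside the proteasome. Over all genes, 9.05% were called higher and 19.9% lower without glucose in KO, and 7.47% and 15.9% in WT. Of the 9 COP9 signalosome genes, whose complex is built like the lid of the 19S particle, 0 were called higher and 3 lower without glucose in KO and 0 higher and 2 lower in WT (limma, and 0 higher at an unadjusted p under 0.05), with medians of -0.22 and -0.29. GPS1 (log2 fold change -0.43 in KO and -0.52 in WT) and COPS4 (-0.47 in KO and -0.50 in WT) were called lower in both genotypes. Of the 13 genes of eIF3, a translation factor with a related core, 1 was called higher (EIF3F) and 1 lower (EIF3B) in KO and 1 lower (EIF3B) in WT, with medians of 0.07 and 0.04. Of the 8 genes of the CCT chaperonin, TCP1 was called higher and CCT5 lower in both genotypes, with medians of -0.07 and -0.09. TCP1 was at 344, 583 and 755 TPM in KO at 0 g/liter, against 209, 241 and 270 TPM in KO at 4.5 g/liter, and at 583 and 606 TPM in WT at 0 g/liter, against 235 and 269 TPM in WT at 4.5 g/liter. Its log2 fold change was 1.16 in KO (adjusted p = 0.00773, limma) and 1.24 in WT (adjusted p = 0.0177, limma), while the other CCT subunits apart from CCT5 were not called.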
